A study of Mus musculus with 18 samples.

Results

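The genes described here build, cut and grip the extracellular matrix of the mouse kidney: collagens, laminins and other matrix proteins, the matrix metalloproteinases (MMP), ADAM and ADAMTS proteases with their TIMP inhibitors, and the integrin receptors. They were chosen by symbol alone, as genes whose probes carry 1 annotated symbol beginning with Col and a chain number, Lama, Lamb, Lamc, Mmp, Adam, Adamts, Itga, Itgb, Fbn or Fbln, or being Timp1 to Timp4, Fn1, Sparc or a relative of it, or Mgp. The rule matched 57 genes on 79 probes of 16128. A value on at least 6 of 18 arrays was required, which left 56 genes on 78 probes among 11508 features kept in all (6821 genes and 4687 probes without a single symbol), and Adam15, with a value on 5 arrays, was left out. The 56 genes are 27 of matrix, 19 proteases and inhibitors, 9 integrins and Itgb3bp, which encodes a protein that binds an integrin chain and is itself no integrin. Adamtsl1, an ADAMTS-like gene, is counted with the proteases and inhibitors by its symbol only. No fibrillin was matched, and Fbln2 was the only fibulin.

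The arrays carried kidney cDNA of CD1 mice, an outbred stock, which from postnatal day 2 were kept in room air (normoxia), in 11% oxygen throughout (constant hypoxia), or in a cycle that switched every 4 min from 21% oxygen to 11% or back (intermittent hypoxia). Each regime lasted 1, 2 or 4 weeks. There are 9 combinations of regime and duration with 2 arrays for each, called A and B, and so 6 arrays per condition. One array joins 2 animals of the same combination, the one labelled male in Cy5 and the one labelled female in Cy3, and the dyes were never swapped. The deposited value is the log2 ratio of these channels, with no statement in the labels of which channel is the numerator. A positive or negative sign below is therefore only the sign of the ratio after each array was centred on its median feature, and sex and dye cannot be told apart. A response to oxygen of the same size in both animals of an array leaves the ratio as it was, so a difference between conditions is a difference in the ratio and not in the level of a transcript. The ratio also holds no level, so the identity of the tissue could not be checked from its marker genes, and a change in the number of cells of a type and a change in RNA per cell cannot be told apart.

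Collagen IV and laminin form the sheets of basement membrane under every nephron tubule and capillary and in the glomerular filter, while collagens I and III are the fibres of the interstitium and of scar. MMPs, ADAMs and ADAMTS enzymes cut matrix and cell surface proteins, TIMPs block them, and integrins, pairs of an alpha and a beta chain, anchor cells to the matrix. In the kidney the basement membrane changes its chains as glomeruli mature after birth, and low oxygen is known to act on collagen assembly through enzymes that hydroxylate proline.

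The promoters of 3 genes are shown because their ratios passed the test against 0 described below and because they hold, close to the start of transcription, the core letters of the hypoxia response element, to which hypoxia-inducible factors bind. Each run is the 70 bases before an annotated start, 5′ to 3′ on the gene's strand, from RefSeq on mouse build GRCm38.p6, with the core (ACGTG or GCGTG on either strand) in capitals. In Adam10 the capitals mark CACGT, which is ACGTG on the opposite strand. It is overlapped by ACGTG on the printed strand, whose last g is not in capitals. The runs lie upstream of the first exon at chr6:92943535-92943604 on the minus strand, chr9:70678912-70678981 on the plus strand and chr11:46055914-46055983 on the plus strand, with the core starting 44, 64 and 53 bases before the start.
Adamts9: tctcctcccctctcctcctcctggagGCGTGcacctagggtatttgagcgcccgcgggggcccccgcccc
Adam10: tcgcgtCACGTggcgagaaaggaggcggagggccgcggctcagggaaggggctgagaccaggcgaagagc
Adam19: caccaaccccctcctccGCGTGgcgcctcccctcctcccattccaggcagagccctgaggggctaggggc
The Adam19 run is 1 of 3 annotated windows of that gene. Of 14 genes that passed a test against 0, 11 had a window and these 3 held the core within 70 bases, where 18.9% of all genes hold it in any of their windows. Over 250 bases it was present in 20 of 42 windows of the gene set (47.6%), from 18 of 36 genes with a window, against 38.6% of all windows. A match describes letters only.

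Ratios of these genes were small. The median absolute ratio over the genes with a value averaged 0.21 ± 0.05 in normoxia, 0.25 ± 0.07 in constant hypoxia and 0.27 ± 0.14 in intermittent hypoxia (mean and SD over 6 arrays each, log2 units). The same measure over all features averaged 0.26, 0.24 and 0.26. Of the 56 genes, 21 had a value on all 18 arrays and 33 a value in every combination. Constant hypoxia arrays gave a value for 52 to 55 of the 56 genes, normoxia arrays for 33 to 49 and intermittent hypoxia arrays for 32 to 49. Genes such as Adamtsl1, Timp4 and Itga2b, without a value on any normoxia array, entered largely through constant hypoxia.

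**Figure D1:**
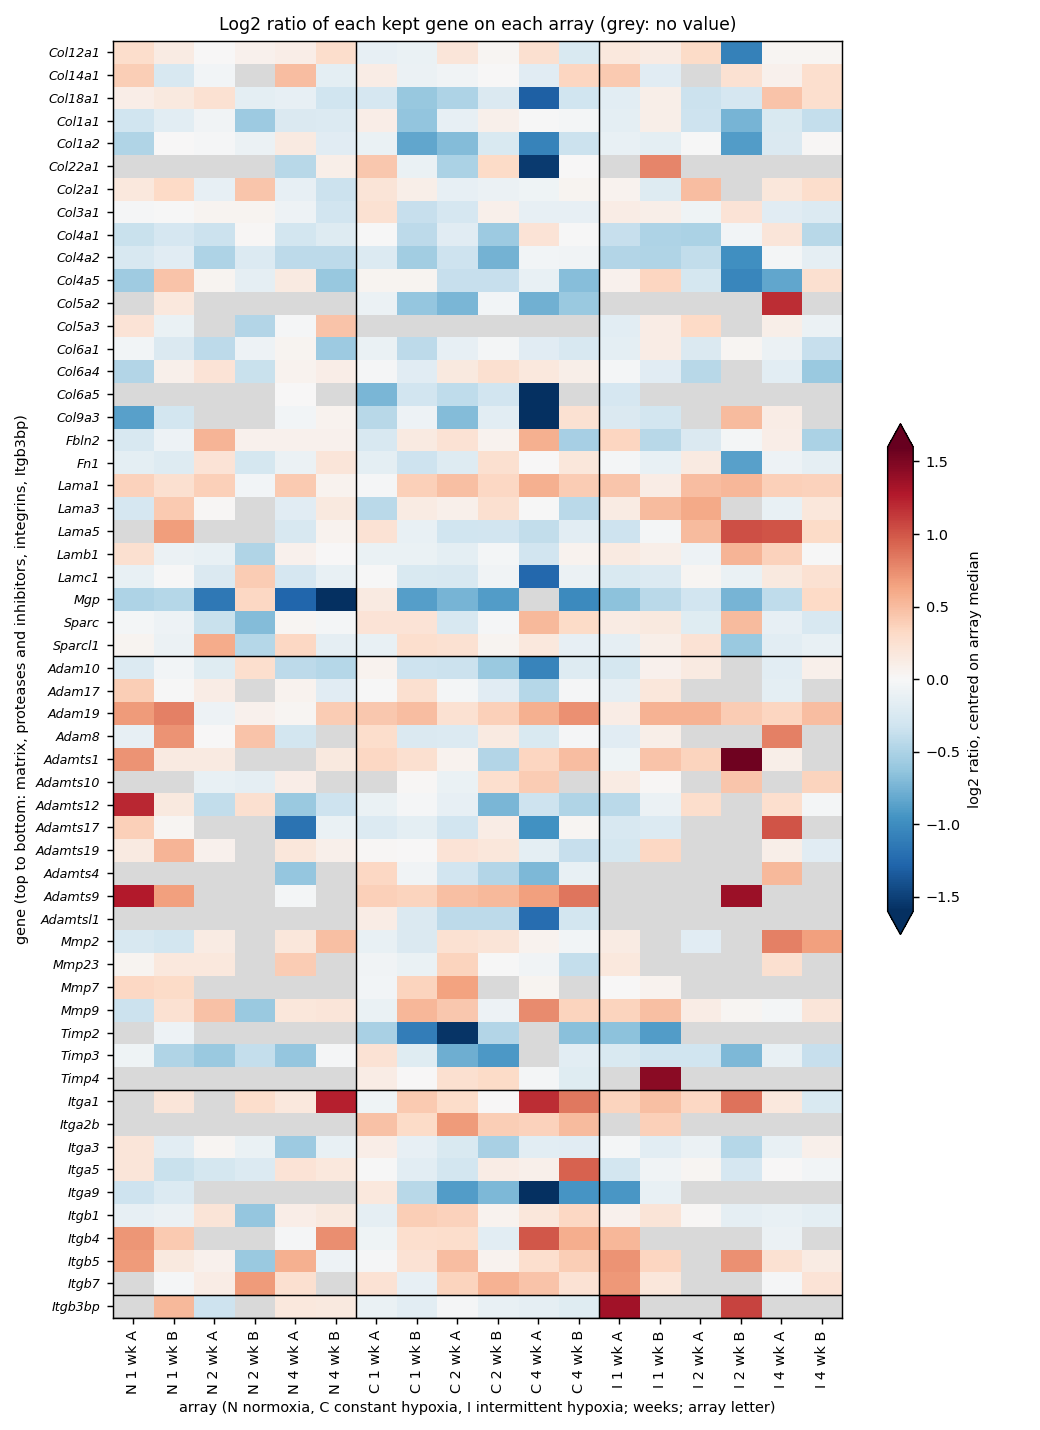
Each row is 1 of the 56 genes and each column 1 of the 18 arrays, with colour for the log2 ratio centred on the array median (red positive, blue negative, colour saturating at the ends of the scale, grey for no value). Horizontal lines separate matrix genes, proteases and inhibitors, integrins and Itgb3bp, and vertical lines the 3 conditions. The dark blue cells of constant hypoxia 4 weeks A include Col18a1 at -1.31, Col9a3 at -2.47 and Itga9 at -2.34.

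The arrays were not alike. Per array, 41.0% to 67.9% of probes had a value in normoxia, 42.9% to 65.7% in intermittent hypoxia and 81.8% to 88.8% in constant hypoxia, whose deposited medians ran from -1.17 to -0.15 against -0.07 to 0.09 on the normoxia arrays. Constant hypoxia cannot be told apart from this difference in how its arrays were deposited. Every direction given for it is relative to the array median: as deposited, without centring, the constant hypoxia means of Adam19, Adamts9, Itga2b and Lama1, all positive below, were -0.31, -0.24, -0.33 and -0.43. On constant hypoxia 4 weeks A, 14.8% of all features lay below -1 and so did 9 of 52 genes of this set. Intermittent hypoxia 2 weeks B had the widest spread, with a median absolute ratio of 0.50 over all features and 0.54 over these genes. Normoxia 2 weeks B correlated least with the mean of the other arrays (r = 0.15 across features, which are not independent replicates). Labels conflict on 2 arrays. On intermittent hypoxia 2 weeks A, the animal labelled female bears the same name as the 1-week animal of intermittent hypoxia 1 week A. On constant hypoxia 4 weeks A, the treatment given for channel 2 lasts 2 weeks.

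A further feature of the arrays bears on many of these genes. Ratios drifted along the probe numbers, which may or may not follow the layout of the slide. The running median of 150 probes on each side spanned 0.57 to 2.27 from its lowest to its highest point on 17 arrays, and 3.42 on constant hypoxia 4 weeks A, where it fell to -2.91 near probe 14504. All 8 probes of this set with a value there and a number over 14000 lay below -1, with a median of -2.40, against -2.11 for all probes over 14000. The other probes of the set had a median of 0.05 on that array, against 0.09 for all others. The 8 probes belong to Col18a1, Adamts17, Lamc1, Col9a3, Itga9, Col1a2, Col6a5 and Col22a1, that is to collagen, laminin, protease and integrin genes alike. For Col18a1, the precursor of endostatin, probe 14568 read -3.25 on this array while probes 4428 and 7902 read -0.56 and -0.12, and the running medians at the 3 places were -2.87, -0.25 and 0.18. Lamc1, the gamma chain of most laminins, read -2.66 at probe 14463 and 0.15 at probe 12734. For many results below that rest on such probes, though not for all, the value after the running median is removed stands beside them.

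**Figure D2:**
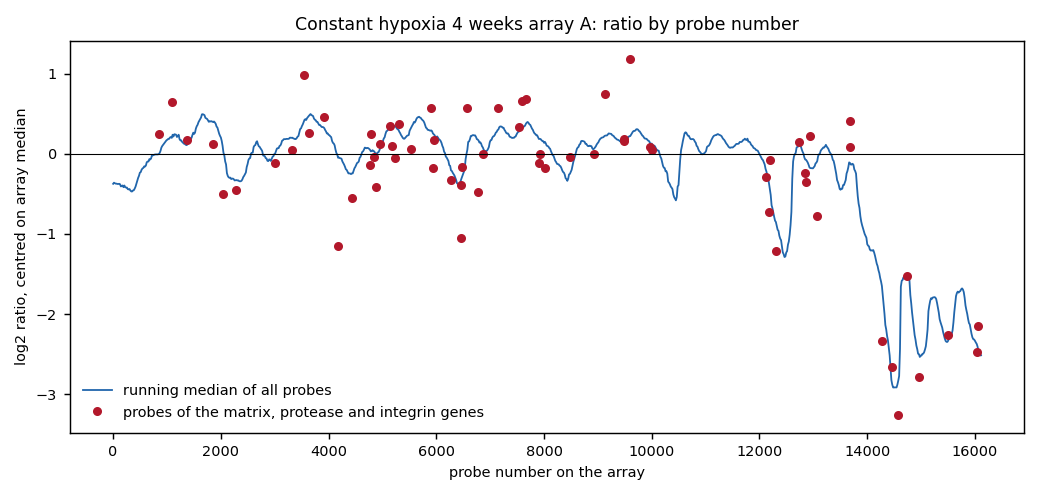
Log2 ratio (vertical axis, centred on the array median) by probe number (horizontal axis) on constant hypoxia 4 weeks A, with a blue line for the running median of all probes and red points for the 67 probes of this gene set that have a value. The 8 red points over probe 14000 follow the line down, with a median of -2.40, while the points at 14000 or lower have a median of 0.05.

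Signs were compared between probes of one gene. For the 13 genes with more than 1 probe, 2 probes of a gene could be set side by side 394 times over pairs and arrays, and their signs matched 192 times (48.7%). Over all genes with several probes the share was 54.5%. With the running median removed it was 60.9% for this set and 56.0% for all genes. Col3a1, the collagen III chain, had 4 probes, of which probes 1368 and 9960 matched in sign on 11 of 16 arrays and probes 4877 and 6466 on 3 of 10. The 4 probes of Sparc, a calcium-binding matrix protein of growing and healing tissue, ranged in agreement from 10 of 12 arrays to 7 of 17. For Lama5, the alpha chain of mature glomerular laminin, the signs of its 2 probes matched on all 7 arrays that held both. No intermittent hypoxia array was among them.

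For each condition the mean ratio over its 3 durations was tested against 0, which asks whether the animals labelled male and female (and the dyes that mark them) read differently, whatever the oxygen. In normoxia 1 of 40 genes passed (2.5%), in the negative direction, beside 3.38% of 7535 features (1.66% positive and 1.73% negative). In constant hypoxia 13 of 55 passed (23.6%), 4 positive and 9 negative, beside 12.7% of 11246 features (3.13% positive and 9.57% negative). In intermittent hypoxia 4 of 37 passed (10.8%), 3 positive and 1 negative, beside 7.56% of 6875 features (4.73% positive and 2.84% negative). These are calls at an adjusted p of 0.05 with limma, Benjamini-Hochberg over all features. With the running median along the probe numbers removed, the counts in normoxia, constant and intermittent hypoxia were 2, 1 and 4, beside 5.79%, 2.17% and 7.85% of features. Without moderation of the variance they were 1, 1 and 3, beside 1.86%, 2.26% and 4.7%. Single arrays decided many of these calls: leaving out constant hypoxia 1 week B, 2 weeks A or 2 weeks B left 0 calls in constant hypoxia, and leaving out intermittent hypoxia 1 week B or 4 weeks A left 0 in intermittent hypoxia. These counts with an array left out have no share of all features beside them, so their fall is no result about these genes. A sign held over arrays was common in general. Of 3046 features with 18 values, 8.44% kept 1 sign on at least 17 arrays and 2.33% on all 18. Of the 21 genes here it was 2 and 1.

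Col4a2, a chain of the collagen IV that forms the net of every basement membrane, was below 0 on all 18 arrays. Its lowest, median and highest ratios were -0.49, -0.33 and -0.19 in normoxia, -0.76, -0.27 and -0.04 in constant hypoxia and -0.98, -0.43 and -0.03 in intermittent hypoxia. The 3 ranges overlap almost whole, and the values nearest 0 are those of 4 weeks in both hypoxia regimes. The mean was -0.42 (SE 0.09, adjusted p = 0.0234) in intermittent hypoxia, -0.33 (SE 0.09, adjusted p = 0.04) in constant hypoxia and -0.33 (SE 0.09, adjusted p = 0.0664) in normoxia. With the running median removed it was below 0 on 16 of 18 arrays, and the intermittent hypoxia mean of -0.27 still passed (adjusted p = 0.0226) while the constant hypoxia mean of -0.11 did not (adjusted p = 0.402).

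Col4a1, the partner chain read from the same stretch of chromosome 8, was below 0 on 15 of 18 arrays. Its median ratio was -0.28 in normoxia, -0.09 in constant hypoxia and -0.41 in intermittent hypoxia, with highest values of 0.02, 0.22 and 0.19. The exceptions were normoxia 2 weeks B and, at 4 weeks, array A of either hypoxia regime. Its 2 probes matched in sign on 8 of 13 arrays. Col4a5, the X-linked chain altered in Alport syndrome and joined to collagen IV of the mature glomerulus, was below 0 on 10 of 18 arrays, from -1.04 to 0.45. With the running median removed, Col4a1 was below 0 on 13 of 18 arrays and Col4a5 on 12 of 18.

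Laminins are trimers of an alpha, a beta and a gamma chain, and Lama1, an early alpha chain of the developing nephron, was above 0 on 16 of 18 arrays. Its lowest, median and highest ratios were -0.04, 0.31 and 0.42 in normoxia, -0.02, 0.39 and 0.56 in constant hypoxia and 0.12, 0.41 and 0.53 in intermittent hypoxia. The 3 conditions cover nearly the same range. Its mean passed in constant hypoxia (0.36, SE 0.09, adjusted p = 0.0289) and intermittent hypoxia (0.39, SE 0.09, adjusted p = 0.0252) and was 0.24 in normoxia (adjusted p = 0.143). Its only probe lies where the running median was high: with that median removed the means were 0.12, 0.01 and 0.02, and none passed.

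Lama5, the alpha chain that takes the place of Lama1 in the mature glomerulus, behaved otherwise. It had 3 values in normoxia, of 0.67 at 1 week B, -0.26 at 4 weeks A and 0.06 at 4 weeks B. In constant hypoxia it was 0.23 and -0.11 at 1 week, -0.32 and -0.31 at 2 weeks and -0.39 and -0.17 at 4 weeks. In intermittent hypoxia it was -0.33 and -0.03 at 1 week, 0.50 and 1.02 at 2 weeks and 1.01 and 0.31 at 4 weeks. The 4 intermittent hypoxia arrays of 2 and 4 weeks lie above every constant hypoxia array. In intermittent hypoxia, 1 and 4 weeks were read by probe 12118 alone and 2 weeks by probe 2045 alone. The step from 1 to 2 weeks there thus compares different probes. Constant hypoxia values average both probes, and their highest readings were 0.20 at probe 2045 and 0.27 at probe 12118. The intermittent hypoxia mean of 0.42 passed against 0 (SE 0.12, adjusted p = 0.0489), also with the running median removed (0.38, adjusted p = 0.0189).

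The other laminin chains showed no common sign. Lamb1, a beta chain of most early laminins, was above 0 on 8 of 18 arrays, from -0.48 to 0.55, and Lama3, the alpha chain of epithelial laminin in skin and lung, on 10 of 16, from -0.44 to 0.61. Lamc1 was below 0 on 14 of 18 arrays, but 1 of its 3 probes, number 14463, was below 0 on 17 of 18 arrays while probe 12734 was above 0 on 13 of 16. After removal of the running median, Lamc1 was above 0 on 15 of 18 arrays. Lamb1 and Lamc1 had the same sign on 8 of 18 arrays and Lama1 and Lamc1 on 4 of 18.

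Among the fibrillar collagens, Col1a1 was below 0 on 15 of 18 arrays, from -0.75 to 0.11, and Col1a2, its partner in collagen I, also on 15 of 18, from -1.07 to 0.14. Both were below 0 on the same 12 arrays. Col1a2 was below 0 on 10 of 18 with the running median removed. The Col1a1 mean was -0.26 in normoxia, -0.10 in constant hypoxia and -0.30 in intermittent hypoxia, the last with an adjusted p of 0.0983. Col1a2 had a constant hypoxia mean of -0.55 (SE 0.14, adjusted p = 0.0279), which was -0.23 (adjusted p = 0.254) with the running median removed. Col3a1 stayed near 0, from -0.37 to 0.24, and was below 0 on 11 of 18 arrays. Col5a2, which regulates the width of collagen I fibres, had 6 of its 8 values in constant hypoxia, with a mean of -0.48 there (adjusted p = 0.0486, and -0.38 with adjusted p = 0.0838 once the running median was removed). Col6a1, of the beaded collagen around cells, was below 0 on 15 of 18 arrays, from -0.58 to 0.12. Col6a5 had 5 constant hypoxia values of -0.30 to -2.15, a fitted mean of -1.01 (adjusted p = 0.0112) and, with the running median removed, a mean of 0.13 (adjusted p = 0.614).

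Mgp encodes matrix Gla protein, an inhibitor of calcification in vessels and cartilage, and had the ratios farthest from 0 in normoxia. It read -0.50 and -0.46 at 1 week, -1.14 and 0.34 at 2 weeks and -1.27 and -1.90 at 4 weeks of normoxia. In constant hypoxia it read 0.14 and -0.88 at 1 week, -0.74 and -0.89 at 2 weeks and -1.02 on the 4-week array with a value. In intermittent hypoxia it read -0.65 and -0.43, -0.30 and -0.74, and -0.41 and 0.32 at the 3 durations. It was thus below 0 on 14 of 17 arrays, and the 2 lowest values are both arrays of 4 weeks of normoxia. The normoxia mean was -0.82 (SE 0.18, adjusted p = 0.0316) and the constant hypoxia mean -0.73 (SE 0.21, adjusted p = 0.0405). On the scale without the running median, they were -0.52 (adjusted p = 0.0375) and -0.33 (adjusted p = 0.301), since the running median at its only probe was below 0 on 15 of 18 arrays.

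Sparc ran from -0.69 to 0.04 in normoxia (below 0 on 5 of 6 arrays), from -0.25 to 0.52 in constant hypoxia (above 0 on 4 of 6) and from -0.26 to 0.50 in intermittent hypoxia (above 0 on 3 of 6). Its relative Sparcl1 was above 0 on 9 of 18 arrays, from -0.59 to 0.60. Fn1, fibronectin, the provisional matrix of healing tissue, was below 0 on 12 of 18 arrays, from -0.87 to 0.26, with means of -0.05, -0.04 and -0.18 in normoxia, constant and intermittent hypoxia. Fbln2, fibulin 2 of elastic vessel walls, was above 0 on 10 of 18, from -0.53 to 0.56. None of these 4 genes passed against 0 in any condition.

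Col18a1, whose cleaved end is the angiogenesis inhibitor endostatin, had its lowest median in constant hypoxia, but the ranges of the conditions overlapped. Its lowest, median and highest ratios were -0.32, -0.01 and 0.25 in normoxia, -1.31, -0.40 and -0.23 in constant hypoxia and -0.34, -0.03 and 0.46 in intermittent hypoxia. The constant hypoxia values average probes 4428, 7902 and 14568, while on most intermittent hypoxia arrays only probe 7902 had a value. Probe 7902 had a value on all 18 arrays. It ranged from -0.62 to 0.21 in constant hypoxia, -0.28 to 0.33 in normoxia and -0.34 to 0.27 in intermittent hypoxia. For the gene average, all 6 constant hypoxia arrays were below 0, and 3 of 6 in each other condition. The constant hypoxia mean was -0.54 (SE 0.12, adjusted p = 0.0164), and -0.19 (adjusted p = 0.167) with the running median removed.

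**Figure D3:**
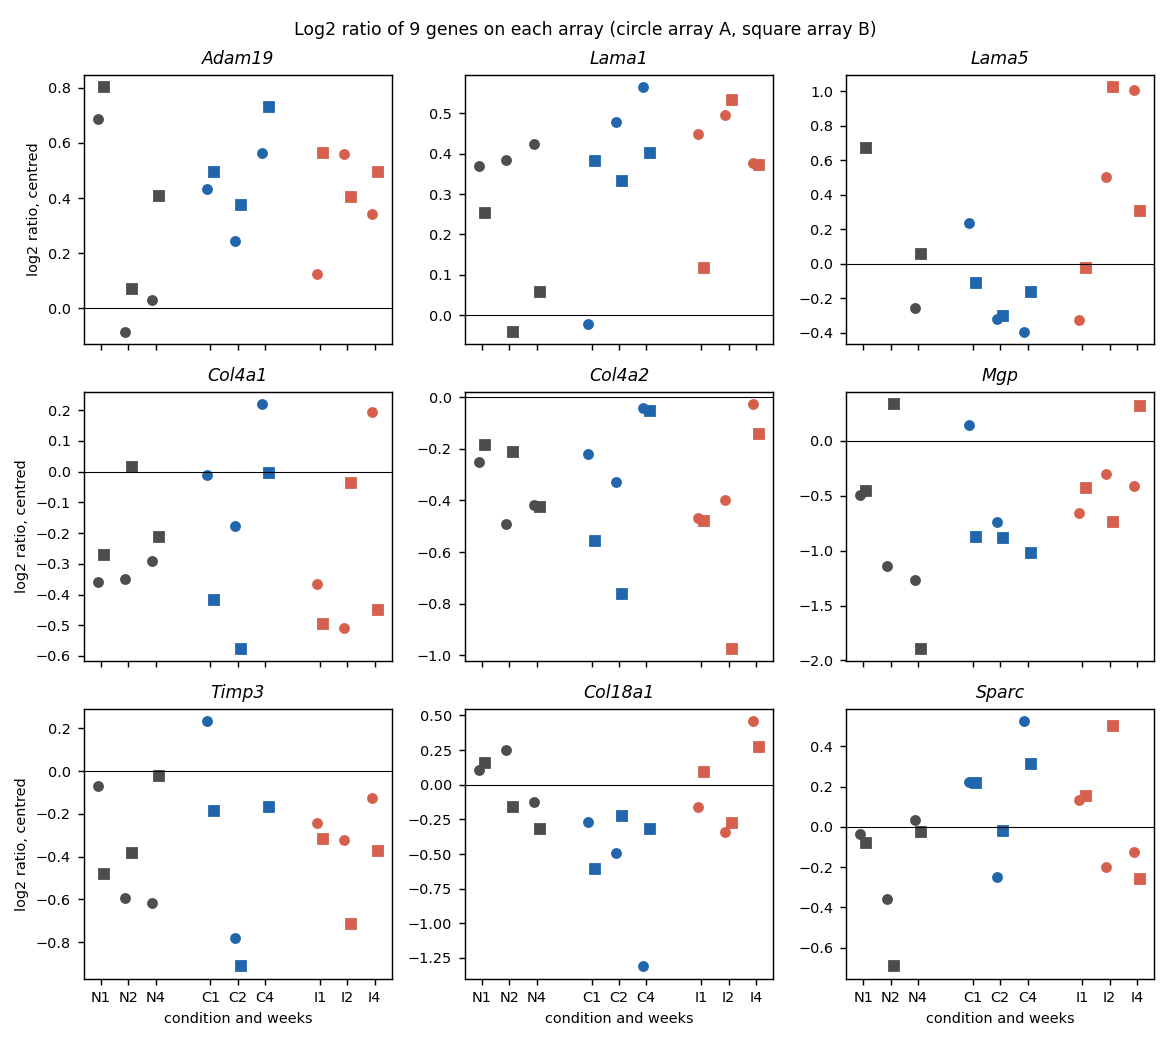
Log2 ratio, centred on the array median (vertical axis), of 9 genes on each array by condition and weeks (horizontal axis), with circles for array A and squares for array B. Col4a2 lies below 0 throughout and Adam19 above 0 on all arrays but normoxia 2 weeks A at -0.08, while Mgp reaches -1.27 and -1.90 at 4 weeks of normoxia.

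Among the proteases, Adam19, a membrane metalloproteinase that sheds growth factors such as neuregulin, was above 0 on 17 of 18 arrays. It read 0.69 and 0.80 at 1 week, -0.08 and 0.07 at 2 weeks and 0.03 and 0.41 at 4 weeks of normoxia. In constant hypoxia the 6 values lay between 0.24 and 0.73 and in intermittent hypoxia between 0.12 and 0.56. Its mean passed in constant hypoxia (0.47, SE 0.09, adjusted p = 0.0106) and intermittent hypoxia (0.41, SE 0.09, adjusted p = 0.0178), and was 0.32 in normoxia (SE 0.09, adjusted p = 0.0558). Once the running median was removed, the means were 0.40 (adjusted p = 0.0238), 0.29 (adjusted p = 0.0447) and 0.31 (adjusted p = 0.0403). Adam19 was the only gene of the set that passed in each of the 3 conditions on that scale. With 1 probe and no dye swap, sex and dye cannot be told apart for it either.

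The other ADAM genes were less steady. Adam10, the sheddase of Notch and cadherins, was below 0 on 12 of 17 arrays, with a constant hypoxia mean of -0.41 (adjusted p = 0.0396) that was -0.19 (adjusted p = 0.345) with the running median removed. Adam17, the sheddase of tumour necrosis factor, was below 0 on 9 of 14 arrays, from -0.46 to 0.39, and its 2 probes matched in sign on 2 of 9 arrays. Of the ADAMTS enzymes, which cut proteoglycans, Adamts9 was above 0 on 9 of 10 arrays, with a constant hypoxia mean of 0.54 (SE 0.11, adjusted p = 0.0185), or 0.32 (adjusted p = 0.0754) with the running median removed. Adamts1 was above 0 on 13 of 15 arrays, but on 7 of 15 once the running median was removed. Its value of 1.56 on intermittent hypoxia 2 weeks B was the highest ratio of any gene here, and was 0.30 with the running median removed. Adamts10, an enzyme tied to fibrillin microfibrils, passed in intermittent hypoxia only on that last scale (0.42, adjusted p = 0.0346).

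The gelatinases, which cut collagen IV and denatured collagen, had no steady sign. Mmp9 was above 0 on 13 of 18 arrays, from -0.59 to 0.75, and Mmp2 on 9 of 15, from -0.30 to 0.81. Mmp7 (matrilysin), an epithelial protease induced in kidney injury, was above 0 on 7 of its 8 arrays, and Mmp23 on 7 of 12. Mmp2 was below 0 on 11 of 15 arrays and Mmp23 on 10 of 12 with the running median removed. Timp3, the inhibitor that is bound to matrix, was below 0 on 16 of 17 arrays, from -0.91 to 0.23, and on 13 of 17 with the running median removed. Its means were -0.36 in normoxia (adjusted p = 0.0748) and -0.35 in intermittent hypoxia (adjusted p = 0.0635), both short of the threshold. Timp2, which both blocks and helps to activate Mmp2, was below 0 on all 8 arrays with a value, from -1.57 to -0.09, and passed in constant hypoxia (-0.83, SE 0.18, adjusted p = 0.0296, but -0.33 with adjusted p = 0.201 once the running median was removed). Timp4, another inhibitor, was above 0 on 5 of 7 arrays, with 6 values between -0.20 and 0.31 in constant hypoxia and 1 of 1.45 at 1 week of intermittent hypoxia. Mmp2 and Timp3 had the same sign on 5 of 14 arrays.

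Mean ratios of the integrin chains tested were positive for 3 of 6 in normoxia and 2 of 5 in intermittent hypoxia. In constant hypoxia it was 7 of 9. Itga1, the alpha chain of a collagen receptor, was above 0 on 14 of 16 arrays, from -0.25 to 1.25, and its 4 highest values were 1.25 at normoxia 4 weeks B, 1.19 and 0.84 at 4 weeks of constant hypoxia (A and B) and 0.87 at intermittent hypoxia 2 weeks B. Its mean was 0.40 in normoxia (adjusted p = 0.222). Itgb5, a beta chain of vitronectin receptors, was above 0 on 14 of 17 arrays and on 10 of 17 with the running median removed. Itga2b, the platelet and megakaryocyte chain, was above 0 on all 7 arrays with a value, of which 6 were of constant hypoxia, where it passed (0.46, SE 0.10, adjusted p = 0.0287, or 0.32 with adjusted p = 0.102 on the other scale). Itga9, a receptor chain for tenascin and osteopontin, was below 0 on 9 of 10 arrays, with a constant hypoxia mean of -0.86 (adjusted p = 0.0199) that was -0.23 (adjusted p = 0.246) with the running median removed. Itgb1, the beta chain shared by most matrix receptors, was above 0 on 11 of 18 arrays, from -0.62 to 0.40. It matched Itga1 in sign on 12 of 16 arrays, Itga5, the fibronectin receptor chain, on 11 of 18 and Itga3, the laminin receptor chain of podocytes, on 5 of 18. Itga3 was below 0 on 14 of 18 arrays and Itga5 on 10 of 18.

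Between oxygen regimes, no gene of the set passed. For constant hypoxia against normoxia, 0 of 39 genes that could be tested had an adjusted p under 0.05 (limma), beside 0% of 7346 features, with 3 genes under an unadjusted p of 0.05 and 0 called without moderation of the variance. For intermittent hypoxia against normoxia it was 0 of 34 genes, beside 0% of 6318 features, with 0 genes at an unadjusted p of 0.05 and 0 without moderation. For intermittent against constant hypoxia it was 0 of 36 genes, beside 0.0299% of 6693 features, with 4 at an unadjusted p of 0.05 and 0 without moderation. The unadjusted shares of 7.69%, 0% and 11.1% of the genes stood beside 8.6%, 4.8% and 12.6% of all features. The first 2 comparisons share the normoxia arrays.

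Against normoxia, the smallest p in constant hypoxia was that of Col18a1, at -0.52 (SE 0.16, unadjusted p = 0.00686, adjusted p = 0.522), which was -0.29 (adjusted p = 0.306) with the running median removed. Sparc was 0.36 higher (SE 0.13, adjusted p = 0.531) and Col1a2 -0.44 (SE 0.20, adjusted p = 0.571). They were followed by Adamts12 at -0.35 (limma, adjusted p = 0.611), Itgb1 at 0.26 (adjusted p = 0.617) and Mmp9 at 0.29 (adjusted p = 0.661). For Col1a2, probe 15508 read -2.26 on constant hypoxia 4 weeks A, where the running median was -2.32. Leaving out constant hypoxia 4 weeks B, which leaves the drifting array A alone for its combination, made Col18a1 pass at -0.69 (adjusted p = 0.00504), beside 8.76% of all features. In intermittent hypoxia the positive differences with the smallest p were Mgp at 0.45 (SE 0.26), Itgb5 at 0.35 (SE 0.19) and Sparc at 0.23 (SE 0.13), and the negative ones Col6a4 at -0.25, Col12a1 at -0.21 and Fbln2 at -0.19. The adjusted p of these 6 genes was 0.979.

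The 95% intervals give the sizes of difference that these arrays could not tell from 0. For Col4a2 the difference from normoxia was 0.00 in constant hypoxia (interval -0.28 to 0.29) and -0.09 in intermittent hypoxia (-0.37 to 0.20). For Adam19 it was 0.16 (-0.11 to 0.42) and 0.10 (-0.17 to 0.36), and for Fn1 0.01 (-0.35 to 0.38) and -0.13 (-0.50 to 0.24). For Mgp it was wider, at 0.09 (-0.52 to 0.69) and 0.45 (-0.11 to 1.01). Timp3 differed by 0.03 (-0.32 to 0.38) and 0.01 (-0.31 to 0.34). An interval that spans 0 does not show that the ratios were alike.

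**Figure D4:**
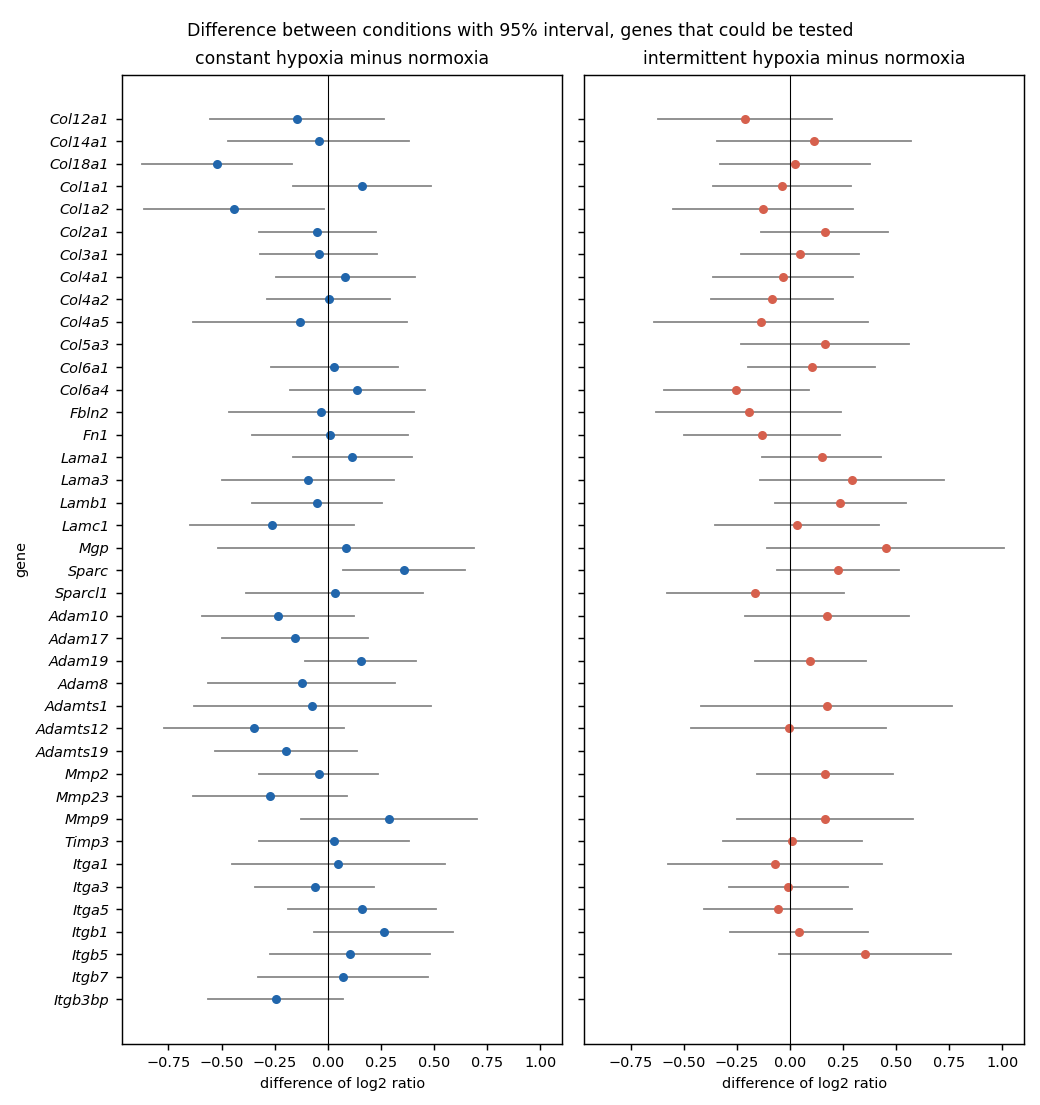
Difference of the log2 ratio from normoxia (horizontal axis, log2 units) for each gene that could be tested (vertical axis), in constant hypoxia on the left and intermittent hypoxia on the right, as fitted estimates with 95% intervals. On the left the intervals of Col18a1 (-0.52), Col1a2 (-0.44) and Sparc (0.36) do not reach 0, and on the right every interval spans 0. The drift along probe numbers is not removed.

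Between the hypoxia regimes, Lama5 was 0.59 higher in intermittent than in constant hypoxia (SE 0.16, adjusted p = 0.219) and Col18a1 0.54 higher (SE 0.16, adjusted p = 0.259). Adam10 differed by 0.41 (adjusted p = 0.38) and Col6a4, a minor collagen VI chain, by -0.39 (adjusted p = 0.367). Itgb1 and Itga5 each differed by -0.22 (limma, adjusted p = 0.536 and 0.568). For Col18a1, the constant hypoxia values include probe 14568, which read -3.25 on 4 weeks A, where the running median was -2.87. Without constant hypoxia 4 weeks B, 5 genes passed, beside 11.8% of all features: Adam10, Col18a1, Col9a3, Lama5 and Lamc1.

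At single durations no gene of the set passed either (limma), with 2 arrays per group. Against normoxia at 1 week, 0 of 48 genes passed in constant hypoxia, beside 0.0822% of 9730 features, and 0 of 47 in intermittent hypoxia, beside 0% of 8960. At 2 weeks it was 0 of 40, beside 0.0748% of 8025 features, and 0 of 36, beside 0.162% of 6801. At 4 weeks it was 0 of 48, beside 0.0212% of 9416 features, and 0 of 45, beside 0.0234% of 8535. In this order, 3, 3, 0, 5, 2 and 5 genes were under an unadjusted p of 0.05. These are 6.25%, 6.38%, 0%, 13.9%, 4.17% and 11.1% of the genes. Over all features the shares were 8.36%, 4.88%, 10.5%, 14%, 7.59% and 9.72%. Without moderation 1 gene passed, Itgb3bp in intermittent hypoxia at 2 weeks, and 0 in the other 5. Chosen after their values were seen, Mgp differed by 1.54 at 4 weeks of intermittent hypoxia (SE 0.45, 95% interval 0.57 to 2.50, adjusted p = 0.375) and Lama5 by 0.76 (adjusted p = 0.435).

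Duration was compared within each oxygen regime, as 4 weeks against 1 week, a span in which nephrons mature and the kidney grows. In normoxia 0 of 45 genes passed (limma), beside 0% of 8957 features, with 7 at an unadjusted p of 0.05. In constant hypoxia 0 of 55 passed, beside 0% of 11265 features, with 4 at an unadjusted p of 0.05. In intermittent hypoxia 0 of 44 passed, beside 0% of 8465 features, with 3 at an unadjusted p of 0.05. The unadjusted shares of 15.6%, 7.27% and 6.82% of the genes stood beside 11.4%, 9.12% and 4.31% of all features. Without moderation 0 genes passed in each of the 3 regimes.

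In normoxia the negative differences with the smallest p were those of 3 proteases: Adamts12 at -1.14 (SE 0.34, adjusted p = 0.263), Adamts9 at -0.99 (adjusted p = 0.317) and Adam19 at -0.52 (adjusted p = 0.372). Adamts12 read 1.21 and 0.15 at 1 week and -0.59 and -0.33 at 4 weeks, so the 2 ages did not overlap, and 1 array made most of the distance. The positive differences were Mmp2 at 0.61 (SE 0.20, adjusted p = 0.319), Itga1 at 0.51 and Col6a4 at 0.27. Mmp2 read -0.25 and -0.30 at 1 week and 0.18 and 0.49 at 4 weeks of normoxia.

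In constant hypoxia the differences were led by Col6a5 at -1.63 (SE 0.32, adjusted p = 0.513) and Itga9 at -1.50 (SE 0.44, adjusted p = 0.521), both read by probes over 14000 on the drifting array. After removal of the running median, they were 0.46 and -0.55. Adamtsl1 differed by -0.69, and Itga1, Itgb4 (the hemidesmosome chain) and Itga5 by 0.84, 0.68 and 0.61 (adjusted p of 0.528, 0.552 and 0.545). Without constant hypoxia 4 weeks B, 6 genes passed, beside 12.4% of all features: Adamtsl1, Col22a1, Col6a5, Col9a3, Itga9 and Lamc1. All but Adamtsl1 have a probe among the 8 over 14000 on array A. The only probe of Adamtsl1, number 12299, read -1.21 on that array, where the running median was -0.85, and -0.36 after its removal. In intermittent hypoxia Adamts17 differed by 1.24, Lama5 by 0.84 and Mmp2 by 0.59, and Itgb4 by -0.63, Sparc by -0.34 and Col3a1 by -0.31, all with an adjusted p of 0.999. The 4-week value of Adamts17 was 1.01 on array A alone, read by probe 7535, while its 1-week values came from probes 6767 and 14960. Probes 7535 and 14960 matched in sign on 2 of 8 arrays. The change from 1 to 4 weeks was set against that of normoxia: 0 of 44 genes passed for constant hypoxia, beside 0% of 8759 features, and 0 of 43 for intermittent hypoxia, beside 0% of 7919 (limma, with 2 and 6 genes at an unadjusted p of 0.05 and 0 without moderation in both). Those 2 and 6 genes are 4.55% and 14% of the genes tested, beside 5.48% and 9.77% of all features. The smallest p among the 43 was that of Lama5, whose difference of changes was 1.61 (SE 0.45, adjusted p = 0.404).

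As groups, the 3 roles differed by little. The median ratio of the matrix genes, averaged over the 6 arrays of a condition, was -0.08 ± 0.04 (SD, n = 6) in normoxia, -0.11 ± 0.07 in constant hypoxia and -0.02 ± 0.08 in intermittent hypoxia, and it was below 0 on 6, 6 and 4 arrays. The proteases and inhibitors averaged 0.09 ± 0.09, -0.04 ± 0.05 and 0.15 ± 0.19, above 0 on 6, 1 and 5 arrays. The integrins averaged 0.06 ± 0.14, 0.20 ± 0.15 and 0.05 ± 0.13, above 0 on 4, 5 and 4 arrays. With the running median not removed, the protease average was thus lowest and the integrin average highest in constant hypoxia. Those arrays also gave a value for more genes. Averages with the running median removed are not given here, so this order holds for the centred scale only. The difference between these averages was not tested. By duration, the protease median averaged 0.19, 0.05 and 0.02 at 1, 2 and 4 weeks of normoxia, 0.01, -0.04 and -0.09 in constant hypoxia and -0.03, 0.28 and 0.20 in intermittent hypoxia. The integrin median averaged 0.07, -0.05 and 0.17 in normoxia, 0.11, 0.18 and 0.33 in constant hypoxia and 0.20, -0.06 and -0.01 in intermittent hypoxia, so at 1 week it was higher in intermittent than in constant hypoxia. The matrix median stayed between -0.13 and 0.02 in all 9 combinations.

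Counted by gene, 3 of 11 proteases and inhibitors had a positive difference of constant hypoxia from normoxia (median -0.12), 10 of 21 matrix genes (median -0.03) and 5 of 6 integrins (median 0.09), where the median over all features tested was -0.02. For intermittent hypoxia the counts were 6 of 7 (median 0.16), 12 of 22 (median 0.03) and 2 of 5 (median -0.01), beside a median over all features of 0.01. None of these genes passed on its own, so the counts describe signs only.

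**Figure D5:**
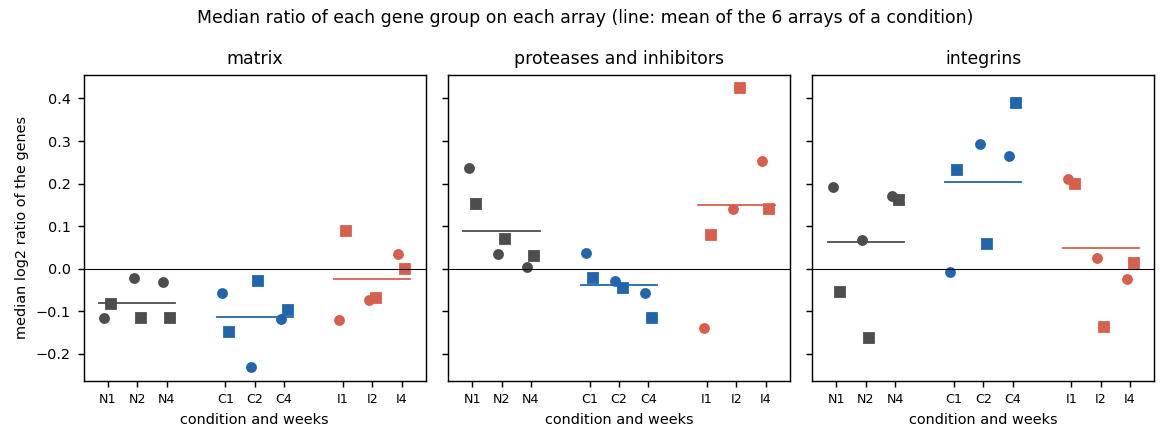
Median log2 ratio of the matrix genes, proteases and inhibitors, and integrins on each array (vertical axis, centred on the array median), by condition (horizontal axis), with a line for the mean of 6 arrays. The proteases and inhibitors average 0.09, -0.04 and 0.15 and the integrins 0.06, 0.20 and 0.05 in normoxia, constant and intermittent hypoxia. The drift along probe numbers is not removed.

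Replicate arrays of a combination agreed loosely. Their ratios correlated at 0.21 to 0.66 over all features, and at -0.23 (normoxia 2 weeks) to 0.61 (constant hypoxia 2 weeks) over the gene set, as correlations across genes, which are not independent replicates. Precision is limited by how few arrays there are: the median SE of a difference between conditions was 0.16 to 0.17 for these genes and 0.29 to 0.30 for a difference between durations.

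Genes that act on the same matrix were taken from 5 further lists. Of 23 genes of collagen maturation and crosslinking 8 had enough values, of 39 other matrix proteins 18, of 19 of the plasminogen system and other matrix-degrading enzymes 7, of 18 of TGF-beta signalling 7, and of 24 other matrix receptors and focal adhesion genes 13. No gene of these lists passed between regimes or durations (limma). The differences of constant hypoxia from normoxia could be tested for 6, 14, 6, 4 and 11 genes and had medians of -0.02, -0.01, 0.08, -0.01 and -0.04 in this order, with 0, 2, 0, 0 and 1 genes under an unadjusted p of 0.05. For intermittent hypoxia, with 7, 12, 6, 2 and 9 genes tested, the medians were -0.08, 0.04, 0.12, 0.08 and 0.08, with 0 genes under that p in each list. Over all features, the shares under that p were 8.6% for constant and 4.8% for intermittent hypoxia.

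Against 0, P4hb, the beta subunit of the collagen prolyl hydroxylase, passed in the negative direction in all 3 conditions (-0.51, -0.79 and -0.47 in normoxia, constant and intermittent hypoxia), and with the running median removed in none (-0.22, -0.16 and -0.23). Serpinh1, the collagen chaperone HSP47, passed in constant hypoxia at -0.63, or -0.38 (adjusted p = 0.0892) on the other scale. The genes that passed on both scales were Pdgfa, a growth factor of mesenchymal cells, at -0.48 in normoxia and -0.52 in constant hypoxia, Hyal2, a hyaluronidase, at -0.52 in normoxia, and Prelp, a collagen-binding proteoglycan, at 0.60 in normoxia. On the scale without the running median, these 4 values were -0.36, -0.34, -0.41 and 0.39. Vcan, Emilin1 and Ecm1, further matrix genes, passed in constant hypoxia at -0.99, -0.82 and -1.16, and were 0.03, -0.05 and -0.44 with the running median removed, none of which passed. Ctsd, the lysosomal protease cathepsin D, passed at -0.33 in constant hypoxia (adjusted p = 0.042) and -0.34 in intermittent hypoxia (adjusted p = 0.0477), and was -0.29 (adjusted p = 0.058) and -0.24 (adjusted p = 0.0635) with the running median removed. Tgfbr3, a co-receptor for TGF-beta, passed in constant hypoxia at -0.40 (adjusted p = 0.0321), or -0.24 (adjusted p = 0.139) with the running median removed.

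Markers of other cells could be read only in part: 3 of 10 for nephron tubule, 2 of 5 for podocytes, 3 of 7 for endothelium, 3 of 8 for fibroblasts and mural cells, 1 of 10 for leukocytes, 3 of 6 for erythroid cells and 0 of 6 for muscle and fat. None passed between regimes or durations (limma). In constant hypoxia the mean ratio of Hbb-b1, a beta globin, was -1.42 (adjusted p = 0.0179) and that of Pdgfra, a fibroblast receptor, 0.41 (adjusted p = 0.0404). Once the running median was removed, they were -0.33 and 0.17. Cnn1, of the same marker list as Pdgfra, had a negative mean of -0.36 there that did not pass (limma, adjusted p = 0.12). These markers stand beside the constant hypoxia means of the matrix genes above, and their part in those means was not tested.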

How the data were processed

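Each of the 18 arrays compared 2 kidney RNA samples (60 ug per channel, extracted with Trizol) labelled with Cy5 and Cy3, per the labels' protocols. For every probe of an array the authors deposited a log2 ratio of the channels. Background correction, normalization and direction: not given in the sources used here. That the log is of base 2 was checked on the values. The depth of an array has no equivalent here, and the number of arrays limits the precision.

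Symbols came from GEO's platform annotation (9604 of 16128 probes with 1 symbol, 213 with several, 6311 with none). Probes of a gene were averaged, features with a value on at least 6 arrays kept, and each array centred on its median. A model with 9 group means was fitted per feature with limma 3.58.1 in R 4.3.3 (moderated variance, prior df 4.897), two-sided, Benjamini-Hochberg over all features tested, threshold 0.05, 95% intervals. A comparison was tested only where each of its groups had a value. The fit was checked on simulated data.

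Of the gene set, named are all genes past the threshold, filled to 3 per direction by smallest p, and fixed collagens, laminins, inhibitors and integrins. The members and lists were chosen with earlier results of these data known. Array letters state no pairing, and same-letter deviations correlated from -0.35 to 0.41 (median 0.013). Alternatives covered centring, filters, probe averaging, moderation, left-out arrays, array letter as a block and removal of the running median along probe numbers. Separate animals are named per channel, but p-values measure only the spread between these arrays.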

Additional observations from a re-analysis of the deposited data

How the results depend on the processing

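For the 3 differences between regimes over all durations and the 3 of 4 weeks minus 1 week, 0 genes passed under every alternative with centred arrays that kept all arrays. At single durations the alternative without moderation gave 1 gene (Itgb3bp), and the calls against 0 were not stable. With values as deposited, without centring, 39 genes passed between constant hypoxia and normoxia, 36 between the hypoxia regimes and 54 in constant hypoxia against 0, where 96.9%, 94.1% and 99% of all features passed too. The constant hypoxia medians were then -0.90 for matrix genes, -0.83 for proteases and inhibitors and -0.58 for integrins. Signs turned with them: constant hypoxia minus normoxia was -0.45 for Sparc, -0.55 for Itgb1 and -0.52 for Mmp9, intermittent minus constant hypoxia was 0.41 for Col6a4, 0.57 for Itgb1 and 0.57 for Itga5, and the constant hypoxia mean was -0.31 for Adam19, -0.24 for Adamts9, -0.33 for Itga2b and -0.43 for Lama1.

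With the running median removed, 2 genes passed against 0 in normoxia and 1 in constant hypoxia, and Col6a5 turned to 0.46 for 4 weeks minus 1 week in constant hypoxia and to 0.13 for the mean there. A value on 15 of 18 arrays and in every group left 2 calls in normoxia and 8 in constant hypoxia, with fewer genes tested. Each probe as its own feature gave 3 in normoxia. No variance moderation gave 1 in constant hypoxia, and the arrays of 1 condition alone gave 0 in constant and 0 in intermittent hypoxia. With array letter as a replicate block, 0 genes passed in each of the 6 differences, 1 in normoxia, 12 in constant and 4 in intermittent hypoxia, and of the named genes only Col5a2 in constant hypoxia and Lama5 in intermittent hypoxia no longer passed (adjusted p = 0.0581 and 0.0608).

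Without both arrays whose labels disagree, the calls against 0 were 4 in normoxia, 8 in constant and 11 in intermittent hypoxia. Without the pair of arrays that stood farthest apart (constant hypoxia 4 weeks A, and 2 weeks B of intermittent hypoxia), an alternative chosen after seeing the data, they were 4, 8 and 2, and Col12a1 turned to 0.0191 for intermittent hypoxia minus normoxia. Leaving out 1 array at a time gave 0 to 1 genes for constant hypoxia minus normoxia, 0 to 5 between the hypoxia regimes and 0 to 6 for duration in constant hypoxia, the highest value in each without constant hypoxia 4 weeks B. The calls against 0 ranged from 0 to 4 in normoxia (0 without normoxia 1 week A or B, 2 weeks A, 4 weeks A or B, or constant hypoxia 2 weeks A or B, and 4 without either array of constant hypoxia 4 weeks). They ranged from 0 to 16 in constant hypoxia (16 without 4 weeks B) and from 0 to 10 in intermittent hypoxia (10 without 2 weeks A). Intermittent hypoxia minus normoxia ranged from -0.4445 to 0.0191 for Col12a1 (the highest without intermittent hypoxia 2 weeks B). For 4 weeks minus 1 week in normoxia it was -0.0282 to 1.0461 for Itga1 (the lowest without 4 weeks B) and -0.0039 to 0.5469 for Col6a4 (the lowest without 1 week A). Where no value shows it, the cause was not tested. Of the values of single genes, 1640 kept direction and side of the threshold, 154 no longer passed, 37 newly passed and 16 changed direction. Where a left-out array leaves 1 in its group, that array is assumed to vary like the other groups. Counts of genes that passed, in this and the preceding paragraph, have no share of all features beside them. A rise or fall of such a count is therefore no result about these genes. A signal over background, which would limit dim probes, is not held by the ratios.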
